A study of Mus musculus with 8 samples.

Results

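The genes described here encode the receptors of the interleukin-1 family and of the alarmin cytokines IL-25 and TSLP. There were 9 of them, fixed by name and matched by gene symbol: Il1rl1, Il1r1, Il1r2, Il1rl2, Il1rap, Il18r1, Il18rap, Il17rb and Crlf2. All 9 were among the 18389 genes of the ILC2 table, and 8 were among the 17642 genes of the CD8 T cell table, where Il17rb was absent. Either table held 19805 genes in all. The libraries came from wild-type mice, per the labels: group 2 innate lymphoid cells (ILC2s) of the lung and CD8 T cells of the spleen, both primary cells. Each cell type had 2 libraries from cells kept on their own, which the labels call untreated, and 2 from cells kept together with the other type for 3 days at a ratio of 5:1 and then separated by flow cytometry. The age and sex of the mice, the medium and its cytokines, and the gates of the sort are not stated in the labels.

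Receptors of the interleukin-1 family pair a ligand-binding chain with a signalling partner chain, and the paired intracellular domains recruit MyD88 and IRAK kinases, which lead to NF-kappaB. Il1rl1 encodes ST2, the IL-33 receptor and a defining receptor of ILC2s. Il1rap encodes the partner chain shared by the receptors for IL-33, IL-1 and IL-36, whereas Il18rap encodes the partner of the IL-18 receptor. Epithelial cells release IL-33, IL-25 and TSLP on damage, and these alarmins activate ILC2s in the lung. IL-25 acts through a pair of IL-17 receptor chains and TSLP through Crlf2 with the IL-7 receptor chain, which signals by JAK kinases and STAT5. In CD8 T cells, IL-18 is known to raise interferon gamma production, and activated cells can respond to IL-33.

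Of these genes, 6 lie side by side on chromosome 1, all on the plus strand, within 467 kb of GRCm38.p6, the assembly behind mm10 (40084692 to 40551707, RefSeq). Their order is Il1r2, Il1r1, Il1rl2, Il1rl1, Il18r1 and Il18rap, with no other protein-coding gene between them. The end of Il1rl1 (40404864 to 40465418) and the start of Il18r1 (40465552 to 40500854) are 133 bases apart. Reads of a transcript running from one into the other cannot be told apart from reads of Il18r1. Il1rap lies on chromosome 16 (26581509 to 26730128, plus strand), Il17rb on chromosome 14 (29996168 to 30008896, minus strand) and Crlf2 on chromosome 5 (109554709 to 109559128, minus strand). All are protein-coding genes.

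The 4 stretches below are the 250 bases before a RefSeq start of 4 genes of the chromosome 1 cluster (GRCm38.p6, plus strand). They are shown because these neighbours moved in opposite directions in the ILC2 libraries: Il1rl1 (chr1:40429320-40429569) and Il18rap (chr1:40515112-40515361) were higher, Il1r1 (chr1:40224830-40225079) and Il1rl2 (chr1:40324339-40324588) lower in those labelled co-cultured. None of the 4 overlaps an annotated exon of GENCODE M21, while those of Il1rl1 and Il1r1 lie inside the RefSeq span of their own gene, before an internal start. Capitals mark GATAA on either strand, the core letters bound by GATA factors such as GATA3, so that a match on the minus strand reads TTATC.
Il1rl1: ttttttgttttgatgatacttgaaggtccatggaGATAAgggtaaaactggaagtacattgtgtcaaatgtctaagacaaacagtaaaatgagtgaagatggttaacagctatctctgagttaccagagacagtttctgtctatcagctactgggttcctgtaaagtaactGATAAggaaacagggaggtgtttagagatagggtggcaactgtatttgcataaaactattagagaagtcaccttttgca
Il18rap: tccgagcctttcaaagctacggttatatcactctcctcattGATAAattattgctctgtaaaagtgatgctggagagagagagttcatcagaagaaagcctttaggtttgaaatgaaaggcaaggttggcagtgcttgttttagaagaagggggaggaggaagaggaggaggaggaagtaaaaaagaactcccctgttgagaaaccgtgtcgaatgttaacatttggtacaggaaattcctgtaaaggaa
Il1r1: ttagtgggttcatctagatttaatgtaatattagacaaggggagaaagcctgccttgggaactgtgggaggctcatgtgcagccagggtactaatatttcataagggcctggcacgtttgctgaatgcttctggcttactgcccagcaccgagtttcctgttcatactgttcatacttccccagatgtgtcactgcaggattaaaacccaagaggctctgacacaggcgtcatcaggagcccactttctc
Il1rl2: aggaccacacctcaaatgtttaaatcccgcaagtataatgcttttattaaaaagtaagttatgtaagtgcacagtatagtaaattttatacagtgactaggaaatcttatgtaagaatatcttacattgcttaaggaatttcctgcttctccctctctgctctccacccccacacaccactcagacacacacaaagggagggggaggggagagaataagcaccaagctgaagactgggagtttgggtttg
GATAA was found on either strand in 4 of the 13 windows of the 9 genes (30.8%), against 22.6% of all 32851 RefSeq windows of this length. The window of Il1rl1 held 2 matches and that of Il18rap held 1, while those of Il1r1 and Il1rl2 held none. The other matches were 1 in the window of Il1r2 and 1 at a second start of Il1rl1. Il18r1, with 3 windows, and Crlf2, with 1, were higher too in ILC2s labelled co-cultured and held none. Il1rap, which was lower, and Il17rb held none either. None of the 4 printed windows held TTCNNNGAA, the STAT5-type letters (7.02% of all windows), or TGANTCA, the AP-1-type letters (6.75%), on either strand. Outside them, TTCNNNGAA had 2 matches in 1 window of Il18r1 and 1 in that of Il1r2, and TGANTCA had 1 in that of Il17rb. The search overlapped no motif with another. These matches are letters in a window and not measured binding sites.

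Library totals ran from 48072595 to 67076905 counts. Replicate libraries were not repeats of 1 library, since their counts were further apart than sampling allows (12.54 to 25.9 for chi-square per gene). The labels do not name separate cultures or mice for the replicates, and the p-values therefore cover the spread among these libraries, technical or not. Levels are in CPM, the usual unit for counts scaled to the library total, and a level per kilobase (kb) of exon is used wherever genes are compared with each other. Marker genes of several cell types differed between the ILC2 groups. Summed CPM of 10 stroma and epithelium genes stood at 4909 and 5281 in the ILC2 libraries labelled alone and at 314.4 and 301.6 in those labelled co-cultured. Of these genes 8 were lower, and Lox, Col1a1 and Col1a2 fell to group means below 0.5 CPM, while Lum and Pecam1 were higher. The 5 monocyte and macrophage genes in the table summed to 313.3 and 319.1 CPM labelled alone and 17.0 and 21.1 CPM labelled co-cultured, and all 5 were lower. The 14 CD8 T cell genes summed to 1732 and 1675 CPM labelled alone and 655.6 and 720.7 CPM in the ILC2s labelled as cultured with CD8 T cells. Of these genes 12 were lower, among them Cd8a, with group means of 253.8 and 6.42 CPM, and Cd3e, with 193.7 and 18.2 CPM. The 2 that rose were Runx3 (84.3 and 315.9 CPM) and Zap70 (58.7 and 178.4 CPM), which made up most of the sum labelled co-cultured. Genes of ILC2 identity other than the receptors summed to 4028 and 3939 CPM labelled alone and 9914 and 10077 CPM labelled co-cultured, and 17 of 17 were higher. Groups are therefore called labelled alone and labelled co-cultured. Of 8 immediate early and heat shock genes, which handling of cells can induce, 6 were lower and 2 higher in ILC2s labelled co-cultured (median log2 change -1.43). Among them Egr1 had 121.2 and 118.3 CPM labelled alone and 25.9 and 25.6 CPM labelled co-cultured, and Hspa1a had 37.6 and 33.9 and then 13.4 and 9.88 CPM. Among the CD8 T cell libraries 4 of the 8 were higher and 3 lower labelled co-cultured. The part of these 8 genes in the receptor levels was not tested. All these marker counts stand beside those of all genes tested. Of these, 31.8% were higher and 34.4% lower in ILC2s labelled co-cultured, and 30.2% higher and 30.7% lower in CD8 T cells. In bulk RNA, fewer cells of a type and less RNA per cell cannot be told apart.

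In ILC2s labelled co-cultured, the IL-33 receptor gene, the decoy IL-1 receptor gene, both IL-18 receptor chains and the TSLP receptor gene were 2.24 to 3.24 times higher in CPM than in ILC2s labelled alone, although Il18r1 turned to a log2 change of -0.16 when scaled to ILC2 identity genes, and Il1rl1 and Crlf2 did not pass under that scaling. Il1r1, Il1rl2 and Il1rap, which encode chains of the IL-1 and IL-36 receptors, were lower, and the IL-25 receptor gene Il17rb did not pass the test. By edgeR's quasi-likelihood test (adjusted p under 0.05), 5 of 9 genes were thus higher, where 31.8% of the 16739 genes tested were higher, and 3 were lower, where 34.4% of all genes were lower. The median log2 change was 1.38 over the 9 genes and -0.010 over all genes. In CD8 T cells, 3 of 8 genes were higher labelled co-cultured, where 30.2% of the 15948 genes tested were higher, and 4 were lower, where 30.7% were lower. Without CD8 alone replicate 1 only 2 were lower, with the calls of Il1r1 and Il1rl2 lost, and Crlf2 was not called higher when scaled to CD8 T cell genes. The medians there were -0.79 and -0.005.

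**Figure D1:**
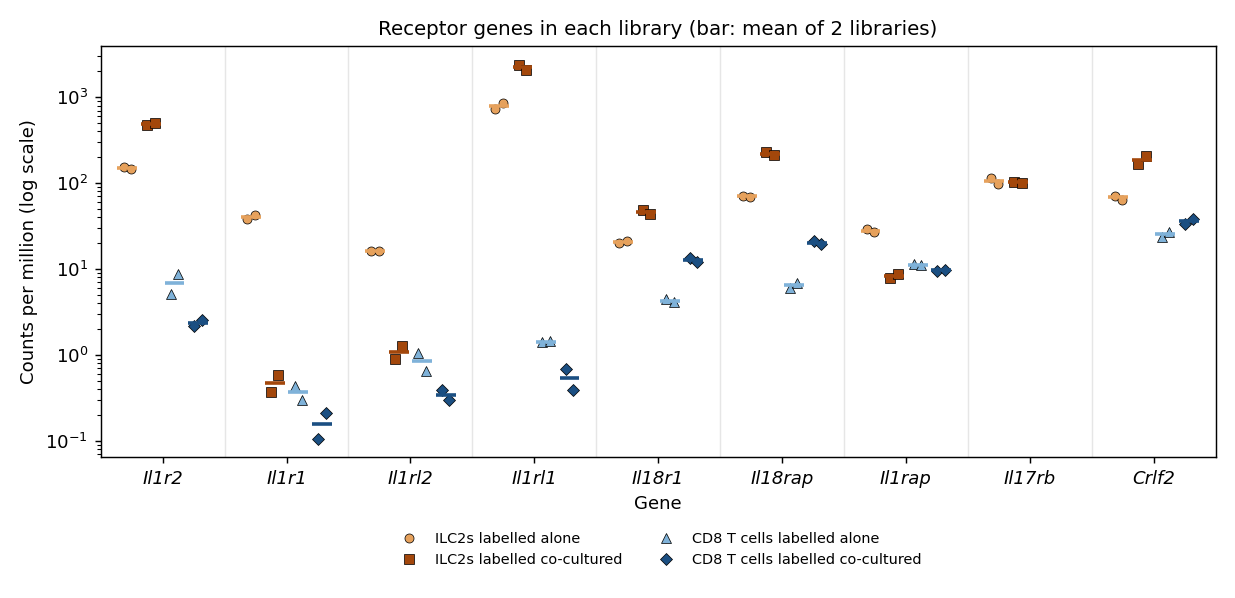
CPM of each receptor gene in each of the 8 libraries, on a log axis; points are libraries and bars the mean of 2 libraries. The chromosome 1 genes come first, in gene order. Il1rl1 reached 2084 to 2399 CPM in ILC2s labelled co-cultured and stayed below 1.5 CPM in all 4 CD8 T cell libraries, and Il17rb has no CD8 points because it is absent from that table.

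Il1rl1, which encodes the IL-33 receptor ST2 in both its membrane-bound and its soluble form, was the most abundant of the 9 genes per kb in ILC2s. Its level was 737.6 and 856.0 CPM in the ILC2 libraries labelled alone and 2399 and 2084 CPM in those labelled co-cultured. Both co-cultured libraries lay above both alone libraries. The log2 change was 1.71 ± 0.133 (SE; adjusted p = 5.2e-07 by edgeR), and it did not pass when libraries were scaled to ILC2 identity genes (0.16, adjusted p = 0.24). CD8 T cells had 1.41 and 1.45 CPM labelled alone and 0.695 and 0.388 CPM labelled co-cultured, from 83 reads at most. Their groups did not overlap either, and the lower level was the co-cultured one (log2 change -1.48 ± 0.330 SE, adjusted p = 0.0018 by edgeR). Counts per gene do not separate the soluble from the membrane-bound transcript.

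The low Il1rl1 level in CD8 T cells amounted to 0.179% of the ILC2 level in the libraries labelled alone and to 0.0241% in those labelled co-cultured. The shares of the 14 other genes of ILC2 identity in the CD8 table ranged widely, from 0.267% to 182% labelled alone and from 0.029% to 260% labelled co-cultured. At the low end, Arg1, the arginase gene, had 0.267% and 0.0468%, and Hlf, a transcription factor gene, had 0.507% and 0.029%. Nmur1 had 0.32% and 0.379%, Calca 0.398% and 0.164%, and Areg 0.489% and 0.189%. Il5, a type 2 cytokine gene, had 3.11% and 0.0452%. At the high end, Gata3, a transcription factor gene that T cells also use, had 28.5% and 6.41%, Kit had 61.6% and 260%, and Ccr4 had 182% and 15.9%. Rora had 14.1% and 17.6%. Nmur1, Rora and Kit thus had higher shares labelled co-cultured than labelled alone, and the others of the 14 had lower ones. The part that RNA of ILC2s had in the CD8 T cell values of Il1rl1 was not tested.

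Il1rap, the partner chain that the IL-33, IL-1 and IL-36 receptors share, went the other way from Il1rl1 in ILC2s. It stood at 28.9 and 26.7 CPM labelled alone and at 7.84 and 8.82 CPM labelled co-cultured. The 2 groups were well apart, with a log2 change of -1.53 ± 0.143 (SE; adjusted p = 2.4e-06 by edgeR). Its CD8 T cell values were 11.3 and 11.2 CPM labelled alone and 9.61 and 9.87 CPM labelled co-cultured. The groups did not overlap, but the difference did not pass (log2 change -0.29, 95% interval -0.55 to -0.02, edgeR adjusted p = 0.059). It passed under a stricter low-count filter (adjusted p = 0.047) and when the libraries were scaled to CD8 T cell genes (log2 change -0.55, adjusted p = 0.002), all by edgeR. In ILC2s, Il1rl1 thus had 25.5 and 32.1 reads per read of Il1rap labelled alone and 306 and 236 reads labelled co-cultured.

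Il1r1, the signalling receptor for IL-1, had the largest change of the 9 genes. ILC2s labelled alone had 38.5 and 43.0 CPM (2337 and 2385 reads), and those labelled co-cultured had 0.371 and 0.583 CPM (18 and 28 reads). The mean level labelled alone was 85.5 times that labelled co-cultured (log2 change -6.20 ± 0.217 SE, adjusted p = 7.2e-10 by edgeR). Of the 10 stroma and epithelium markers in these libraries 8 fell with it, among them Col1a1 at 1147 ± 112 and 0.476 ± 0.232 CPM (SD, n = 2). The other 2, Lum and Pecam1, rose. The part of these markers in the level of Il1r1 was not tested. CD8 T cells had 0.437 and 0.298 CPM labelled alone and 0.106 and 0.209 CPM labelled co-cultured, which is 7 to 23 reads per library. The lower level labelled co-cultured passed narrowly (log2 change -1.28 ± 0.492 SE, adjusted p = 0.038 by edgeR). That call ended with DESeq2 and without CD8 alone replicate 1, CD8 alone replicate 2 or CD8 co-cultured replicate 1, and the adjusted p ranged from 0.013 to 0.24 over 14 alternatives.

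Il1r2 encodes the decoy receptor, which binds IL-1 without signalling. In ILC2s its level rose from 154.0 and 146.1 CPM labelled alone to 471.1 and 502.0 CPM labelled co-cultured. The replicates lay close together and the groups far apart (log2 change 1.91 ± 0.115 SE, adjusted p = 6.2e-08 by edgeR). CD8 T cells had 5.07 and 8.71 CPM labelled alone and 2.15 and 2.52 CPM labelled co-cultured. The alone replicates differed more from each other than the co-cultured ones, and both were higher (log2 change -1.65 ± 0.240 SE, adjusted p = 6.0e-05 by edgeR). The 2 granulocyte and mast cell genes in the CD8 table fell with it, from summed levels of 12.4 and 9.496 CPM to 0.287 and 0.194 CPM, and their part in its level was not tested. For each read of Il1r1, the ILC2 libraries labelled alone held 4.003 and 3.39 reads of Il1r2, and those labelled co-cultured held 1269 and 862. An antisense gene, Gm16894, overlaps the start of Il1r2, and the strand setting of the counts is not stated in the labels.

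Il1rl2, the ligand-binding chain of the IL-36 receptor, lies 8387 bases after Il1r1 and moved in the same direction in ILC2s. It stood at 16.1 and 16.2 CPM labelled alone and at 0.908 and 1.27 CPM labelled co-cultured. The groups differed 14.8 times in mean CPM, with a log2 change of -3.68 ± 0.205 (SE; adjusted p = 3.5e-08 by edgeR). The CD8 T cell libraries had 1.04 and 0.648 CPM labelled alone and 0.393 and 0.298 CPM labelled co-cultured. The co-cultured libraries were again the lower ones (log2 change -1.36 ± 0.387 SE, adjusted p = 0.0083 by edgeR), and without CD8 alone replicate 1 the difference no longer passed (edgeR adjusted p = 0.13). Summed macrophage markers fell beside Il1rl2 and Il1r1 in ILC2s, and Csf1r, the receptor gene of monocytes and macrophages, went from 13.6 ± 1.31 to 0.124 ± 0.030 CPM (SD, n = 2). Their part in the 2 receptor genes was not tested.

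Both chains of the IL-18 receptor were higher labelled co-cultured in both cell types, except that Il18r1 in ILC2s turned to -0.16 under the scaling to ILC2 identity genes. Il18r1, the ligand-binding chain, stood at 20.1 and 20.95 CPM in ILC2s labelled alone and at 48.1 and 43.8 CPM in those labelled co-cultured. No libraries of the groups overlapped (log2 change 1.38 ± 0.135 SE, adjusted p = 3.5e-06 by edgeR). The CD8 T cell values were 4.48 and 4.08 CPM labelled alone and 13.4 and 12.2 CPM labelled co-cultured, a log2 change of 1.50 ± 0.140 (SE; adjusted p = 1.2e-06 by edgeR). There, Il1rl1 had at most 0.356 reads per read of Il18r1, its neighbour downstream. In ILC2s, Il1rl1 had 36.8 and 40.9 reads per read of Il18r1 labelled alone and 49.9 and 47.65 labelled co-cultured. The part of transcripts running on from Il1rl1 in the level of Il18r1 was not tested.

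Il18rap, the signalling partner, had 71.8 and 69.2 CPM in ILC2s labelled alone and 230.3 and 211.6 CPM in those labelled co-cultured. CD8 T cells had 6.04 and 6.90 CPM labelled alone and 20.96 and 19.8 CPM labelled co-cultured. In each cell type the co-cultured libraries lay about 3 times above the others, with mean ratios of 3.14 in ILC2s and 3.15 in CD8 T cells. The log2 changes were 1.87 ± 0.125 (SE; adjusted p = 1.5e-07 by edgeR) and 1.57 ± 0.125 (SE; adjusted p = 3.0e-07 by edgeR). Reads of Il18rap per read of Il18r1 were 3.58 and 3.30 in ILC2s labelled alone, 4.79 and 4.84 in those labelled co-cultured, and 1.35 to 1.69 in the 4 CD8 T cell libraries. The 2 cell types did not overlap in this ratio. The 4 NK cell genes in the CD8 table, 2 of which passed as higher, summed to 186.0 and 213.2 CPM labelled alone and 298.3 and 281.7 CPM labelled co-cultured. The 2 that rose were Tbx21 (166.2 ± 18.5 and 235.6 ± 13.4 CPM; SD, n = 2) and Eomes (25.1 ± 0.997 and 47.2 ± 1.71 CPM; SD, n = 2), factors that effector CD8 T cells use too, and they made up most of the sum. Klrb1c and Klre1, which encode NK cell receptors, had log2 changes of -1.36 and -0.21 and did not pass. Their part in the IL-18 receptor levels was not tested.

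Il17rb encodes the ligand-binding chain of the IL-25 receptor. ILC2s had 115.8 and 98.8 CPM labelled alone and 103.6 and 101.2 CPM labelled co-cultured. The groups overlapped, and the log2 change was 0.15 (95% interval -0.13 to 0.42, edgeR adjusted p = 0.31). A value below 0 was found with library totals alone (-0.07) and with ILC2 identity genes as the scale (-1.39, edgeR adjusted p = 4.2e-07). Il17ra, which encodes the shared partner chain, rose from 48.8 ± 0.294 to 82.5 ± 2.71 CPM (SD, n = 2; log2 change 0.97, edgeR adjusted p = 2.7e-05), but was lower when scaled to ILC2 identity genes (-0.57). Reads of Il17rb per read of Il17ra fell from 2.36 and 2.03 labelled alone to 1.23 and 1.26 labelled co-cultured, a ratio that no scaling of the libraries changes.

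Crlf2, the ligand-binding chain of the TSLP receptor, rose in ILC2s from 71.8 and 64.4 CPM labelled alone to 169.4 and 206.0 CPM labelled co-cultured. Relative to its mean it had the widest spread between co-cultured replicates of the 5 genes that rose, yet the groups were far apart (log2 change 1.67 ± 0.128 SE, adjusted p = 4.5e-07 by edgeR). That call was lost under the scaling to ILC2 identity genes (0.13, adjusted p = 0.33). CD8 T cells had 23.9 and 26.8 CPM labelled alone and 33.9 and 38.6 CPM labelled co-cultured. The rise in CD8 T cells was the smaller one, with a log2 change of 0.43 ± 0.101 (SE; adjusted p = 0.0023 by edgeR), and it did not pass when libraries were scaled to CD8 T cell genes (0.18, adjusted p = 0.15). Il7r, the other chain of the TSLP receptor, had 0.92 in ILC2s (edgeR adjusted p = 6.2e-05), which turned to -0.63 under the scaling to ILC2 identity genes, a list that holds Il7r itself. The log2 change of Il7r in CD8 T cells was 0.40 (edgeR adjusted p = 7.6e-04), and it did not pass when scaled to CD8 T cell genes (0.14, adjusted p = 0.13). Crlf2 had 0.275 and 0.256 reads per read of Il7r in ILC2s labelled alone and 0.378 and 0.535 in those labelled co-cultured.

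**Figure D2:**
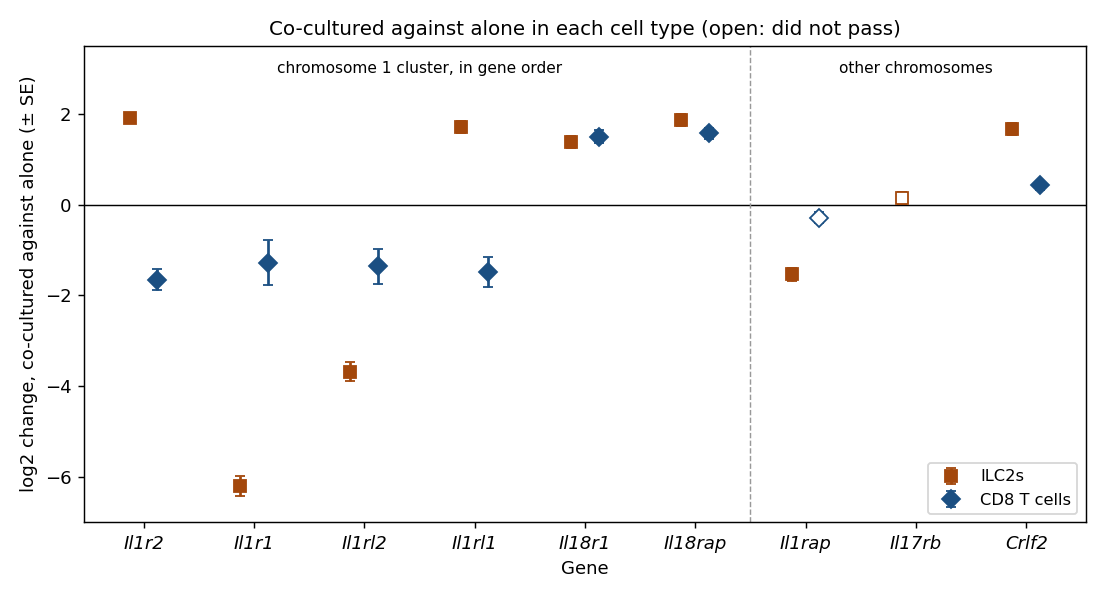
Log2 change of each receptor gene, labelled co-cultured against labelled alone, in ILC2s (squares) and CD8 T cells (diamonds), with bars of 1 SE; open symbols did not pass an edgeR adjusted p of 0.05. Along the chromosome 1 cluster the ILC2 values are 1.91 (Il1r2), -6.20 (Il1r1), -3.68 (Il1rl2) and 1.38 to 1.87 (Il1rl1, Il18r1, Il18rap). The CD8 values are below 0 for the first 4 genes and above 0 for the last 2. Scaling to ILC2 identity genes puts Il18r1 at -0.16 and Il17rb at -1.39 in ILC2s, and library totals put Il17rb at -0.07.

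Along the chromosome 1 cluster, therefore, the genes did not all share a direction in ILC2s. Il1r2 at one end and the last 3 genes at the other were higher labelled co-cultured under the trimmed mean (TMM) scaling used throughout, with Il1r1 and Il1rl2 between them lower, and Il18r1 turned to -0.16 under the scaling to ILC2 identity genes. In CD8 T cells, the first 4 genes in this order were lower and the IL-18 receptor genes higher. Response here means the difference between labelled co-cultured and labelled alone within a cell type. Whether the cell types differed in it was tested with an interaction term in the fit of 8 libraries and 15540 genes. It passed above 0 for 3 of 8 receptor genes, where 20.5% of all genes passed above 0, and it passed below 0 for 3, where 33.0% did. The median was -0.08 for the receptor genes and -0.132 for all genes.

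The response of ILC2s exceeded that of CD8 T cells by 3.39 for Il1r2 (SE 0.248, edgeR adjusted p = 1.3e-08) and by 3.02 for Il1rl1 (SE 0.280, edgeR adjusted p = 2.1e-07) on the log2 scale. For Crlf2 it exceeded it by 1.07 ± 0.159 (SE; adjusted p = 3.4e-05 by edgeR), but this was -0.04 (adjusted p = 0.83) when each cell type was scaled to its own identity genes. The ILC2 response lay below that of CD8 T cells by a log2 difference of -5.09 for Il1r1 (edgeR adjusted p = 1.4e-06), -2.49 for Il1rl2 (7.1e-05) and -1.41 for Il1rap (6.6e-06). Both IL-18 receptor genes missed the threshold. The differences were -0.29 for Il18r1 (95% interval -0.67 to 0.09, edgeR adjusted p = 0.19) and 0.12 for Il18rap (95% interval -0.20 to 0.45, edgeR adjusted p = 0.52). Scaled to identity genes, both were below 0 and passed, at -1.40 and -0.99, and with library totals Il18rap stood at -0.0032.

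The size of each ILC2 rise depended on what the libraries were scaled to. Scaling to the summed ILC2 identity genes, which leaves out the 9 receptors, moved the median log2 change of all genes from -0.010 to -1.549. These genes are not a constant reference. All 17 were higher labelled co-cultured under the trimmed mean scaling, among them Il5 (group means 327.7 and 1493 CPM). A gene that rose along with them is drawn toward 0 on this scale by its construction. Of the 5 receptor genes that were higher, 2 then passed: Il1r2 (log2 change 0.37 ± 0.105 SE, adjusted p = 0.0066 by edgeR) and Il18rap (0.32 ± 0.111 SE, adjusted p = 0.018 by edgeR). Il1rl1 stood at 0.16 (edgeR adjusted p = 0.24), Crlf2 at 0.13 (0.33) and Il18r1 at -0.16 (0.25). The falls were larger on this scale, with Il1r1 at -7.74, Il1rl2 at -5.21 and Il1rap at -3.07. In the CD8 table the median of all genes moved less, from -0.005 to -0.267, and the IL-18 receptor genes still passed, at 1.24 for Il18r1 and 1.31 for Il18rap.

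**Figure D3:**
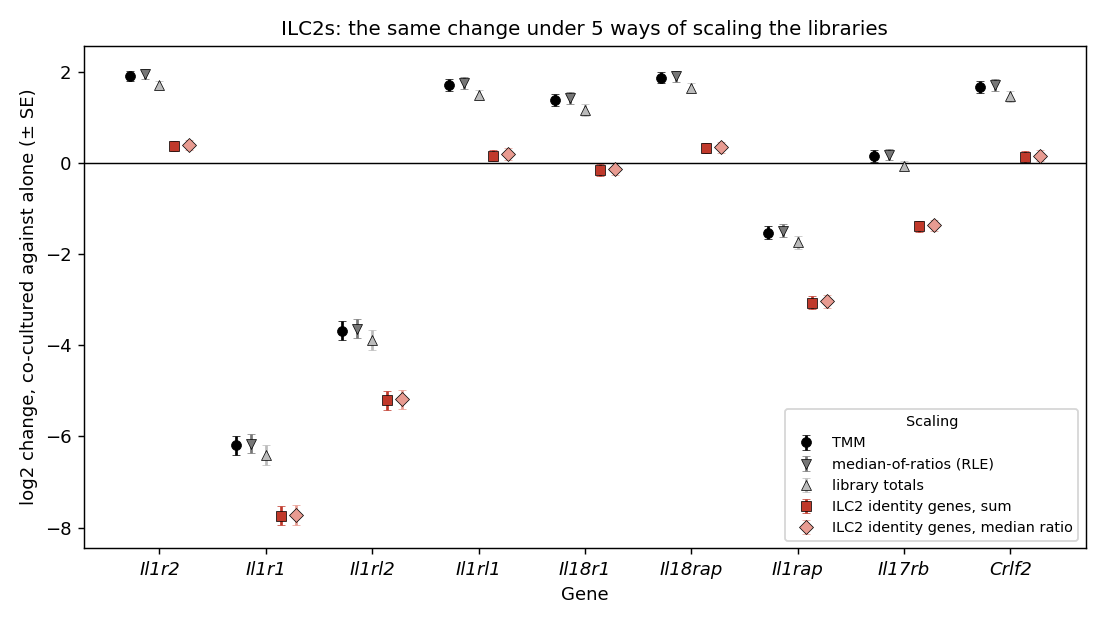
Log2 change of each receptor gene in ILC2s, labelled co-cultured against labelled alone, under 5 ways of scaling the libraries, with bars of 1 SE. The 3 scalings that use all genes put Il1r2, Il1rl1, Il18r1, Il18rap and Crlf2 above 1, while both scalings to ILC2 identity genes put them between -0.16 and 0.39 and put Il17rb at -1.39 and -1.37.

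Ratios to Gata3, the transcription factor gene of type 2 lymphocytes, need no scaling of the libraries. Gata3 itself rose in ILC2s, from 414.3 ± 20.9 CPM labelled alone to 1277 ± 56.3 CPM labelled co-cultured (SD, n = 2). It is also on the list of ILC2 identity genes used for scaling. Reads of Il18rap per read of Gata3 in ILC2s were 0.167 and 0.173 labelled alone and 0.175 and 0.171 labelled co-cultured, so that the groups overlapped. Those of Il1rl1 were 1.72 and 2.14 against 1.82 and 1.68, also overlapping, and those of Il1r2 were 0.359 and 0.366 against 0.358 and 0.406. By contrast, Il17rb fell from 0.270 and 0.247 to 0.0787 and 0.0818 reads per read of Gata3. Il18r1 fell from 0.0467 and 0.0524 to 0.0365 and 0.0354, and Crlf2 had 0.167 and 0.161 against 0.129 and 0.167. Under the trimmed mean scaling Il17rb did not pass and Il18r1 was higher, so both falls are relative to the rise of Gata3. The receptor genes differed among themselves, then, in how their reads moved relative to Gata3.

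Between the cell types, every receptor gene in both tables was higher in ILC2s than in CD8 T cells when libraries labelled alone were compared. That was 8 of 8 by edgeR, where 32.8% of the 15540 genes were higher and 30.4% lower in ILC2s, with a median log2 difference of 3.88 for the receptors and 0.004 for all genes. Among libraries labelled co-cultured, 7 of 8 were higher and none lower, where 32.5% of all genes were higher and 36.8% lower. Their median was 2.26, against -0.052 for all genes. Il1rl1 differed most, by 9.15 labelled alone (edgeR adjusted p = 2.1e-15) and 12.17 labelled co-cultured (edgeR adjusted p = 5.3e-16) on the log2 scale. Il1rap was higher by 1.33 in ILC2s labelled alone (edgeR adjusted p = 1.1e-07) and did not pass among those labelled co-cultured (log2 difference -0.07, 95% interval -0.35 to 0.20, edgeR adjusted p = 0.63). Il1r1 differed by 6.83 and 1.73, Il1rl2 by 4.29 and 1.80, Il1r2 by 4.47 and 7.86, and Il18rap by 3.47 and 3.60, in the same order, and each passed. In libraries labelled alone, 6 of 6 stroma and epithelium markers and 3 of 3 macrophage markers tested were higher in ILC2s too. Among those labelled co-cultured, 2 of the 6 were higher and 2 lower, and 1 of the 3 was higher and 1 lower. The part of these markers in the receptor differences was not tested.

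Ranked by CPM per kb of exon, Il1rl1 led in ILC2s labelled alone with 116 CPM per kb, followed by Il1r2 (78.6), Crlf2 (45.6), Il17rb (28.9) and Il18rap (10.4). Il1r1 (6.41) and Il18r1 (4.26) came next, and Il1rap (2.45) and Il1rl2 (2.37) could not be ordered, since their libraries overlapped. In those labelled co-cultured the first 3 kept their places at 325, 255 and 126 CPM per kb, and Il18rap (32.7) stood above Il17rb (27.6). Il1r1 was last there, at 0.075 CPM per kb, with no overlap between neighbours in the order. In CD8 T cells Crlf2 led in both groups, with 17.0 CPM per kb labelled alone and 24.3 labelled co-cultured. It was followed by Il1r2 (3.61) in those labelled alone, and by Il18rap (3.02) and Il18r1 (2.66) in those labelled co-cultured. In CD8 T cells labelled alone Il18rap (0.958) overlapped both Il1rap (0.99) and Il18r1 (0.889), while Il1rap and Il18r1 did not overlap each other. Il1rl1 (0.0785) and Il1rl2 (0.0507) overlapped in those labelled co-cultured. Il1rl1 made up 58.8% to 69.9% of all reads of the 9 genes in the ILC2 libraries, and Crlf2 41.8% to 46.1% of the reads of the 8 genes in the CD8 T cell libraries.

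The genes of the ligands were themselves measured. Of 13 ligand and soluble antagonist genes listed, 6 were tested in ILC2s, and 6 of 6 were lower labelled co-cultured, where 34.4% of all genes were lower. Their median log2 change was -6.41, against -0.010 for all genes. Il33 had 66.7 and 79.8 CPM labelled alone and 0.619 and 0.499 CPM labelled co-cultured, and its log2 change was -6.81 ± 0.209 (SE; adjusted p = 2.9e-10 by edgeR). Il1rn, which encodes the IL-1 receptor antagonist, had 78.9 and 102.8 CPM labelled alone and 0.206 and 0.936 CPM labelled co-cultured, and its log2 change was -7.10 ± 0.350 (SE; adjusted p = 1.3e-08 by edgeR). These are genes that stroma and macrophages also express. In the same libraries 8 of 10 stroma and epithelium markers and 5 of 5 macrophage markers fell, as given above. Their part in the ligand levels was not tested.

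**Figure D4:**
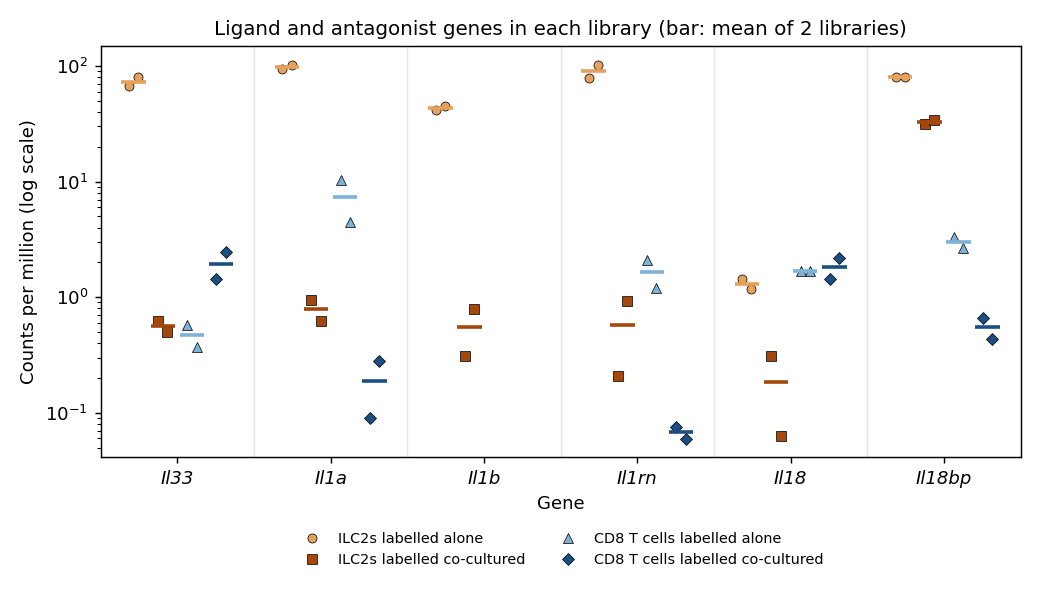
CPM of the ligand and antagonist genes found in the tables, on a log axis; points are libraries and bars the mean of 2 libraries. In ILC2s, Il33, Il1a, Il1b and Il1rn lie above 40 CPM in both libraries labelled alone and below 1 CPM in both labelled co-cultured, and Il1b has no CD8 points because it is absent from that table.

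In CD8 T cells 5 of the ligand and antagonist genes were tested, of which 1 rose and 3 fell (median log2 change -2.52). Of all genes tested there, 30.2% were higher and 30.7% lower. Il1a, which encodes IL-1 alpha, had 10.3 and 4.49 CPM labelled alone and 0.0907 and 0.283 CPM labelled co-cultured, the latter from 6 and 19 reads (log2 change -5.36 ± 0.461 SE, adjusted p = 6.0e-07 by edgeR). Il1rn had 110 and 69 reads labelled alone and 5 and 4 labelled co-cultured (log2 change -4.64, edgeR adjusted p = 2.1e-06). Some myeloid and mast cell markers fell in the same libraries: Lyz2, the lysozyme gene of myeloid cells, went from 197 and 124 reads to 12 and 7 (log2 change -4.43, edgeR adjusted p = 7.5e-07), and the mast cell protease gene Cpa3 from 600 and 494 reads to 1 and 2. Of the 4 monocyte and macrophage genes tested 2 were lower and Cd68 was higher, and both granulocyte and mast cell genes were lower. The part of these markers in the levels of Il1a and Il1rn was not tested. Il33 was the gene that rose, from 0.570 and 0.368 CPM to 1.45 and 2.45 CPM (log2 change 1.98 ± 0.350 SE, adjusted p = 3.0e-04 by edgeR). Stroma markers summed to 54.9 and 58.0 CPM in these libraries labelled alone and 169.1 and 165.2 CPM labelled co-cultured. Of the 6 tested, 4 were higher and 1 lower. Most of the sum came from Pecam1, a gene of endothelium and of many leukocytes (37.4 ± 1.96 and 130.8 ± 2.46 CPM; SD, n = 2), and Epcam, an epithelial adhesion gene (15.9 ± 0.515 and 33.5 ± 0.471 CPM; SD, n = 2). The fibroblast gene Lum fell (log2 change -3.48, edgeR adjusted p = 1.4e-06), Acta2 did not pass, and Col1a1 had group means of 0.440 and 1.004 CPM. The part of these markers in the level of Il33 was not tested. Il25, Tslp, Il36a, Il36b, Il36g, Il36rn and Il1f10 were in neither table.

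Genes of the partner chains and of the signalling steps moved in both directions. Their counts stand beside those of all genes tested, of which 31.8% were higher and 34.4% lower in ILC2s and 30.2% higher and 30.7% lower in CD8 T cells. Of 4 partner chain and related receptor genes tested in ILC2s, 3 were higher and none lower, and in CD8 T cells 3 of 3 were higher. Under the scaling to identity genes all 4 were lower in ILC2s, and in CD8 T cells only 1 of the 3 was still called higher. Of 16 MyD88 signalling genes, 8 were higher and 4 lower in ILC2s (median 0.37) and 10 higher and 1 lower in CD8 T cells (median 0.47). Irak2, a kinase gene of the receptor complex, rose from 52.3 ± 1.00 to 309.2 ± 13.2 CPM in ILC2s (SD, n = 2; log2 change 2.78, edgeR adjusted p = 6.4e-09). It also rose in CD8 T cells, from 17.3 ± 1.63 to 64.4 ± 3.60 CPM (log2 change 1.81, edgeR adjusted p = 1.2e-08). With identity genes as the scale Irak2 remained higher, at 1.24 in ILC2s and 1.55 in CD8 T cells, and it was then the 1 gene of this list that was higher in ILC2s, where 14 were lower. Traf6, a ubiquitin ligase gene of the same pathway, had a log2 change of 1.45 in ILC2s (edgeR adjusted p = 1.8e-06), which turned to -0.10 under that scaling, and Peli1, another ubiquitin ligase gene, rose by 0.90 in CD8 T cells (edgeR adjusted p = 6.0e-07).

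Among 11 genes of NF-kappaB factors and their feedback, 4 were higher and 5 lower in ILC2s (median 0.18), and 6 higher and 5 lower in CD8 T cells (median 0.37). Tnfaip3, the gene of the feedback inhibitor A20, rose from 319.3 ± 23.8 to 988.3 ± 90.0 CPM in ILC2s and from 142.9 ± 23.9 to 422.3 ± 1.08 CPM in CD8 T cells (SD, n = 2). Its log2 changes were 1.85 (edgeR adjusted p = 2.1e-07) and 1.48 (edgeR adjusted p = 8.3e-08), and it still passed under the scaling to identity genes at 0.30 and 1.22. Rel, which encodes the subunit c-Rel, fell by 1.60 in ILC2s (edgeR adjusted p = 5.2e-06), and Bcl3, an NF-kappaB cofactor gene, rose by 1.39 in CD8 T cells (edgeR adjusted p = 7.6e-09).

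Of 7 JAK and STAT5 genes, 5 were higher and 1 lower in ILC2s (median 0.46), and 4 higher and 3 lower in CD8 T cells (median 0.87). Socs1, which encodes a feedback inhibitor of JAK kinases, fell in ILC2s from 331.0 ± 29.2 to 81.0 ± 1.43 CPM (SD, n = 2; log2 change -1.82, edgeR adjusted p = 1.5e-07). Stat5b was higher by 1.32 in ILC2s (edgeR adjusted p = 2.1e-06), and stood at -0.22 on the scale of identity genes. Socs2, another feedback inhibitor, fell by 4.29 in CD8 T cells (edgeR adjusted p = 2.7e-08), where Jak2 rose by 1.34 (edgeR adjusted p = 2.0e-08). Of the genes that process IL-1 family cytokines, 3 of 7 were higher and 2 lower in ILC2s (median -0.14), and 2 of 5 higher and 3 lower in CD8 T cells (median -0.51). Casp1, the protease that matures IL-1 beta and IL-18, fell by 2.62 in CD8 T cells (edgeR adjusted p = 9.3e-08), and its relative Casp4 by 2.11 (edgeR adjusted p = 3.9e-07). In ILC2s the inflammasome sensor genes Nlrp3 and Aim2 were higher by 1.83 (edgeR adjusted p = 3.8e-05) and 1.29 (edgeR adjusted p = 2.2e-05), and stood at 0.29 and -0.25, neither passing, under the scaling to identity genes.

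The genes whose levels ran closest to each receptor gene were found by the root mean square difference of centred log2 CPM over the 8 libraries, among 15539 genes. Il1rl1 was nearest to Hlf (0.566) and Arg1 (0.633). Il1r1 was nearest to Ifi211 (0.376) and Gpx3 (0.393), and Il1rl2 to Fcgr3, an Fc receptor gene of myeloid cells (0.263), and Fgf2, a fibroblast growth factor gene (0.316). Il1r2 was nearest to Arhgef10l (0.301) and Epas1 (0.360), and Il18rap to Gm6637 (0.257) and Fes, a tyrosine kinase gene (0.262). The closest matches were Tnfrsf8, which encodes CD30, for Crlf2 (0.115), Gm40378 for Il1rap (0.124), where Socs1 was the third (0.131), and Swap70 for Il18r1 (0.125). These distances describe 8 libraries in 4 groups and share the depth and scaling of those libraries.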

How the data were processed

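Trizol served for RNA extraction and the SMART-Seq v4 kit for the libraries, per the labels' protocols. The authors deposited whole-number read counts per gene symbol, 1 table for each cell type with 4 libraries each. The build was mm10 and the tools HISAT2 2.1.0, StringTie 2.1.3b, SAMtools 1.9 and Trimmomatic 0.38, per the submitters' processing notes. Their roles, the annotation, the strand setting and the handling of reads shared between genes were not given in these sources. No deposited count is 0, so a gene with 0 reads in any library of a table is absent from it.

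Counts were tested with edgeR 4.0.16 in R 4.3.3 (filterByExpr, trimmed mean scaling, quasi-likelihood F test, Benjamini-Hochberg adjustment over all genes tested, threshold 0.05). Each cell type was fitted alone, and the 4 groups were fitted together over genes in both tables for differences between the cell types, since each table holds its own cell type. Residual degrees of freedom were 2, 2 and 4, and prior ones were 9.2 (ILC2), 10.4 (CD8) and 11.5 (both), so each p leans on the spread of other genes. Intervals are 95% t intervals. CPM are counts over the library total, and kb is the exon union of GENCODE M21. Alternatives were other scalings and filters, DESeq2 1.42.0, limma-voom (limma 3.58.1), a replicate block, left-out libraries, 1 fit of all libraries and a 2-fold limit. The script was run on simulated data in which few genes changed, which does not test the choice of scaling. Plots used Python 3.11.15 with matplotlib 3.10.9.

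The receptors and the gene lists were chosen with earlier results of these data known. All 9 receptors are named. Of each pathway list, the 2 genes with the largest absolute change among those that passed in a comparison are named, and of each receptor the genes nearest in profile are taken from the first 3.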

Additional observations from a re-analysis of the deposited data

Results flagged for a closer look

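For 6 of the 8 receptor genes in both tables, the difference between the labels was not the same in ILC2s and CD8 T cells by an interaction test. In this test (edgeR, adjusted over 15540 genes) 20.5% of all genes passed above 0 and 33.0% below. The ILC2 response minus the CD8 response, on the log2 scale, was 3.39 for Il1r2 and 3.02 for Il1rl1, which were higher labelled co-cultured in ILC2s and lower in CD8 T cells under the trimmed mean scaling. With identity genes as the scale these differences were 2.27 and 1.91, and both passed. It was 1.07 for Crlf2, which was higher in both cell types, and -0.04 with identity genes as the scale. The differences for Il1r1 (-5.09), Il1rl2 (-2.49) and Il1rap (-1.41) were below 0 under each scaling tried, and for Il1r1 and Il1rl2 they rest on 7 to 23 and 20 to 55 reads per CD8 T cell library. Stroma, macrophage and CD8 T cell markers also differed between the ILC2 groups, as given above, and their part in these differences was not tested. Groups of 2 libraries allow no check for a single outlying library.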

How the results depend on the processing

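Of the receptor genes' log2 changes under the alternatives, 625 kept their direction and side of the threshold, 12 lost the call, 5 gained one and 10 turned direction. Scaling to identity genes left 2 receptors higher in ILC2s (5 otherwise), by summed counts or, chosen after the data were seen, by median ratio. It left 5 that passed below 0 (3 otherwise) in the difference between cell types, under both versions. Under the summed and the median-ratio version, in this order, Il18r1 was -0.16 and -0.14 and Il17rb -1.39 and -1.37 in ILC2s, and the difference between cell types was -0.99 and -0.95 for Il18rap and -0.04 and -0.0031 for Crlf2. Library totals gave -0.07 for Il17rb and -0.0032 for the difference of Il18rap. This scaling was not run for ILC2s against CD8 T cells, whose reference genes differ. Leaving out 1 library moved the receptors lower in CD8 T cells between 2 and 4, with 2 without CD8 alone replicate 1. Over all genes, higher and lower calls were 5324 and 5766 in ILC2s, 4274 and 6882 with library totals, and 484 and 13400 with summed identity genes (508 and 13327 by median ratio). In CD8 T cells they were 4810 and 4901, then 5430 and 4379, then 3085 and 6818 (2937 and 6890). For the difference between cell types they were 3187 and 5126, then 2628 and 5881, then 575 and 11266 (596 and 11097). Same-numbered libraries are not said to be paired, and their deviations correlated at 0.075 in ILC2s and -0.001 in CD8 T cells. With the replicate block, ILC2s had 5295 higher and 5761 lower calls and CD8 T cells 4817 and 4915. Depth limits Il1r1, Il1rl2 and Il1rl1 in CD8 T cells, where a library held 7 to 83 reads of each.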
